A study of Manacus vitellinus and Taeniopygia guttata with 24 samples.

Results

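The genes described here had higher transcript levels in the pectoralis (PEC) than in the scapulohumeralis caudalis (SH) of both golden-collared manakins and zebra finches. They were chosen by their levels in RPKM, a unit that divides reads by gene length and by library size. A gene was a member where PEC exceeded SH in at least 5 of the 6 birds of each species, where mean PEC was at least 1.5 times mean SH in each species, and where mean PEC was at least 5 RPKM in each species. An unlisted gene was read as 0. By this rule 67 of the 14926 genes listed in at least 1 library were members, out of 9953 genes listed in both species and 3686 genes that reached 5 RPKM in PEC in both. Because the rule uses the contrast of the muscles, differences between PEC and SH are given as a description with no test, and tests are kept to the hormone treatments.

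RNA was sequenced from both muscles of 6 male manakins (Manacus vitellinus) and 6 male zebra finches (Taeniopygia guttata), giving 24 libraries in 8 groups of 3. Manakins carried a testosterone implant (+T) or a blank one (-T). Finches were first implanted with flutamide, an antiandrogen drug, or with a blank, and from the next day all carried testosterone; these groups are called flutamide and T-only. The finch titles mark the groups only by plus and minus, minus was read as flutamide, and the sample characteristics, at odds with the protocol, put these birds in the absence of the hormone. The labels give no age, and no statement on testes or circulating hormone was found in them. Manakin reads were assigned to zebra finch gene identifiers, so differences in level between the species cannot be told apart from differences in how well reads were assigned.

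The pectoralis is the large breast muscle that powers the downstroke of the wing, and the scapulohumeralis caudalis is a small shoulder muscle that draws the wing back. Male golden-collared manakins use both in an acrobatic courtship display with rapid wing movements, and testosterone is known to be needed for that display. Muscles of different duty are known to differ in the isoforms of contractile proteins, calcium handling proteins and metabolic enzymes that their fibres make. The files pair no identifier with a gene name, and the gene table at hand matched 0 of the 14926 identifiers. The members are therefore given by identifier, without roles or sequences, and markers of fibre types or other cell types could not be read.

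Manakin libraries held 9742206 to 15434530 reads and listed 8925 to 10094 genes, and finch libraries held 14341212 to 23458937 reads and listed 10790 to 12109 genes. Averaged over the PEC libraries, the least covered member had 34.3 reads in manakins, where the finch length was used for 2 members whose recovered lengths differed between species, and 66.3 in finches. The SH library of +T manakin 2 stood apart, with 87.6% of its reads in genes against 73.5% to 80.4% in the other 11 manakin libraries. It had the lowest level of the 6 manakin SH libraries for 45 of the 67 members (67.2%). Of the 3686 genes it was lowest for 28.2% and highest for 32.4%. Some results that rest on it are therefore given with and without it. Other manakin ratios and fits, those for PEC among them, include this library. In bulk tissue, fewer cells of a type and less RNA per cell cannot be told apart.

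Members were a small and mostly modest set. PEC exceeded SH in all 12 birds for 38 of the 67 members, in all 6 manakins for 46 and in all 6 finches for 50. Within a single bird, 57 to 67 of the members had the higher level in PEC, and in 6 of the 12 birds all 67 did. The ratio of mean PEC to mean SH had a median of 1.83 in manakins (range 1.52 to 168) and 1.89 in finches (range 1.50006 to 30.2). It was at least 2 for 20 members in manakins and 28 in finches, and at least 3 for 6 members in manakins and 5 in finches. The same rule turned round, with SH over PEC, chose 518 genes. Among the 3686 genes that reached 5 RPKM in PEC in both species, the median ratio was 0.862 in manakins and 0.828 in finches, and 67.3% of them in manakins and 69.8% in finches had a ratio below 1. In RPKM most genes were thus listed lower in PEC, and the members lay on the other side of that background. When libraries were rescaled so that the typical gene kept the same level (median-ratio scaling), 258 genes met the rule, all 67 members among them, and the turned rule chose 155.

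**Figure D1:**
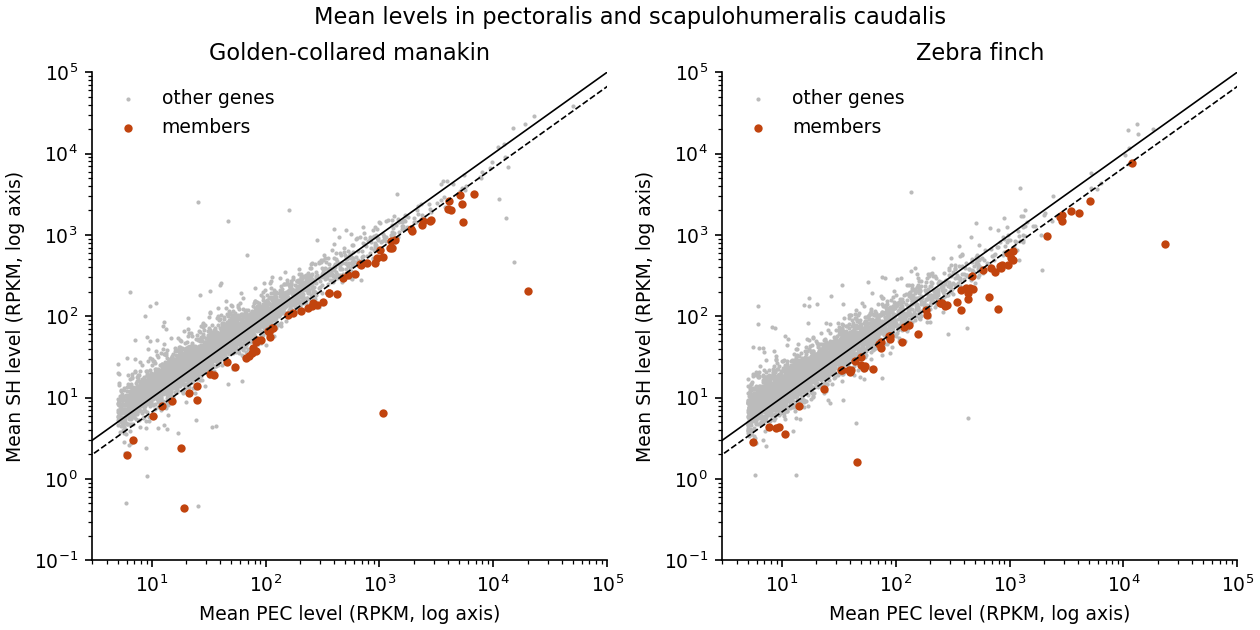
Mean level over 6 birds in PEC (x axis, RPKM, log scale) and SH (y axis, RPKM, log scale) for the 3686 genes at 5 RPKM or more in PEC in both species; members are orange and other genes grey. The solid line marks equal levels and the dashed line PEC at 1.5 times SH; the members lie below the dashed line by construction, mostly close to it, and 3 members in manakins and 2 in finches have a ratio of 10 or more.

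By the smaller of its ratios in the 2 species, the largest contrast belonged to an abundant transcript, ENSTGUG00000006008, whose recovered length was 486 bases and whose function the files do not give. Its PEC levels were 17337, 11341 and 13383 RPKM in +T manakins and 26100, 25479 and 28399 RPKM in -T manakins, against SH levels of 82.2, 5.07 and 521 RPKM in +T manakins and 163, 164 and 285 RPKM in -T manakins. In finches its PEC levels were 19214, 33016 and 20401 RPKM with flutamide and 23674, 22002 and 22396 RPKM with testosterone alone, against SH levels of 250, 1661 and 1066 RPKM with flutamide and 490, 818 and 374 RPKM with testosterone alone. No PEC library overlapped any SH library in either species.

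Its mean was 20340 ± 7252 RPKM in PEC and 203 ± 182 RPKM in SH of manakins (SD, n = 6 birds), a ratio of 100.04. In finches the mean was 23451 ± 4940 RPKM in PEC and 777 ± 527 RPKM in SH (SD, n = 6 birds), a ratio of 30.2. The manakin ratio was 156 without bird 3 of the +T group and 91.1 without bird 2. It was the third most abundant transcript in PEC of manakins and the fourth in finches, and alone it supplied 1.37% to 3.39% of the RPKM of a manakin PEC library and at most 0.0665% of a manakin SH library.

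A second transcript, ENSTGUG00000004856, showed a contrast of the same order at a far lower level. Its PEC levels were 7.11, 14.8 and 19.2 RPKM in +T manakins and 21.9, 28.7 and 24.4 RPKM in -T manakins, against SH levels of 0.13, 1.69 and 0.106 RPKM in +T manakins and 0, 0.437 and 0.261 RPKM in -T manakins. In finches PEC levels were 43.9, 30.1 and 78.3 RPKM with flutamide and 30.1, 42.9 and 49.6 RPKM with testosterone alone, against SH levels of 0.704, 2.51 and 3.42 RPKM with flutamide and 0.0906, 2.00 and 0.885 RPKM with testosterone alone. PEC and SH did not overlap in either species. The mean ratio was 44.3 in manakins and 28.6 in finches. The manakin SH levels rest on 0 to 41 reads a library, and the library of +T bird 2 carries 41 of them, so that without this bird the manakin ratio was 108.

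ENSTGUG00000013386 came next by the smaller of its 2 ratios, had the largest ratio of the members in manakins, and had a manakin SH level far below that of finches. It lies outside the first 2 by ratio, and its muscle contrast was chosen for description after its values were seen. In PEC of manakins it stood at 2651, 1298 and 1464 RPKM in +T birds and 413, 649 and 0.169 RPKM in -T birds. In SH of manakins it was near 0 in all but 1 library, at 0.488, 36.5 and 0.545 RPKM in +T birds and 0.116, 0.654 and 0.163 RPKM in -T birds. The PEC library of -T bird 3 therefore carried 8 reads of this transcript where the other 5 manakin PEC libraries carried 15795 to 112388, at a level close to the 0.163 RPKM in SH of the same bird. The same library had the highest level of the 6 manakin PEC libraries for 26 of the 67 members (38.8%), against 15.1% of the 3686 genes. The near absence was thus not shared by the members at large.

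In finches ENSTGUG00000013386 was found in both muscles, at 542, 469 and 718 RPKM in PEC with flutamide and 491, 1096 and 682 RPKM in PEC with testosterone alone, against 134, 66.4 and 206 RPKM in SH with flutamide and 182, 262 and 189 RPKM in SH with testosterone alone. The ratio of the means was 168 in manakins and 3.85 in finches. The manakin value is set by the SH library of +T bird 2, which held 1897 reads where the other 5 held 6 to 32. Without that bird it was 2633, and without +T bird 1 it was 100.6.

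The second most abundant member by the lower of its 2 species means in PEC, ENSTGUG00000010818, had a clear contrast in manakins and a slight one in finches. Its PEC levels were 3783, 4994 and 14335 RPKM in +T manakins and 3262, 1855 and 3975 RPKM in -T manakins, against SH levels of 2159, 854 and 3094 RPKM in +T manakins and 1011, 728 and 740 RPKM in -T manakins. In finches PEC held 13209, 9555 and 10675 RPKM with flutamide and 9899, 17412 and 10273 RPKM with testosterone alone, against 10850, 9426 and 6318 RPKM in SH with flutamide and 5028, 7600 and 7259 RPKM in SH with testosterone alone. The muscles overlapped in both species, although PEC exceeded SH in each of the 12 birds. The mean ratio was 3.75 in manakins and 1.53 in finches, and the finch value fell below the threshold of 1.5, to 1.38 without bird 2 and 1.47 without bird 1 of the T-only group.

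**Figure D2:**
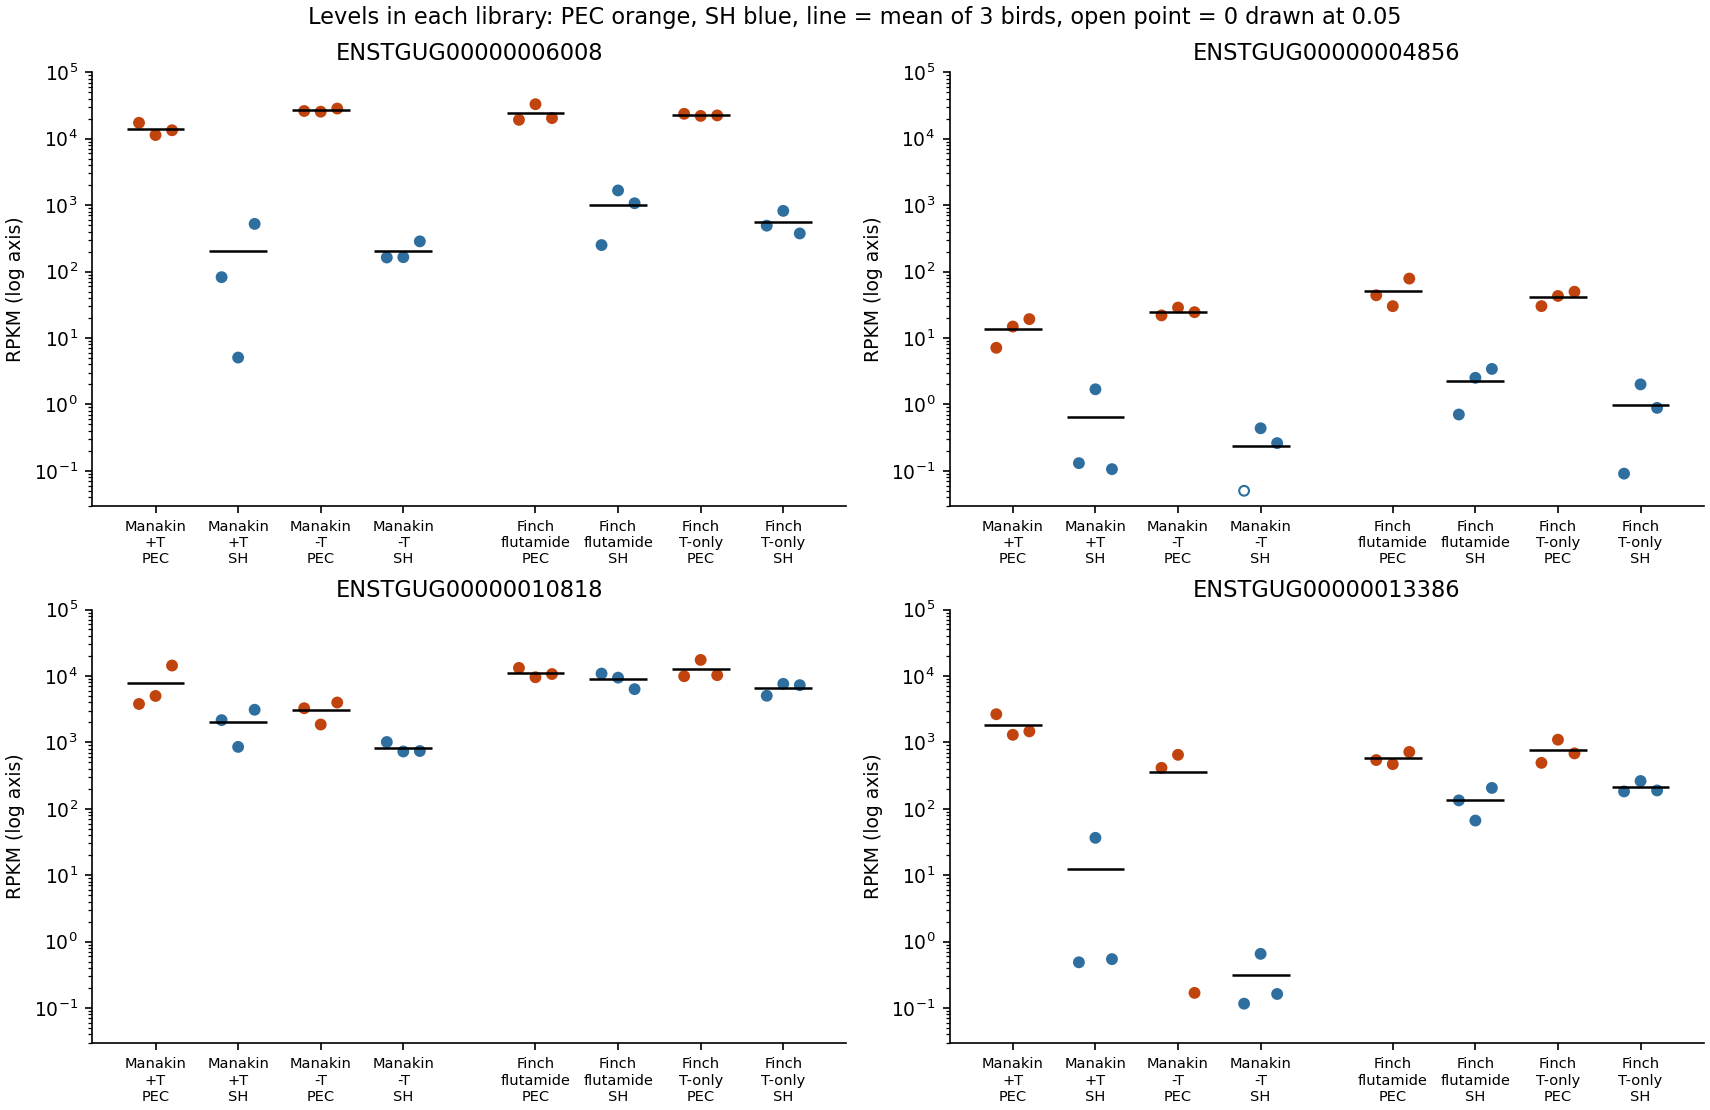
RPKM (y axis, log scale) of 4 members in each library, by species, treatment and muscle (x axis); PEC is orange, SH blue, bars are means of 3 birds and the open point is a library at 0 drawn at 0.05. PEC lies far above SH for ENSTGUG00000006008 and ENSTGUG00000004856 in both species, and the single low PEC point of ENSTGUG00000013386 is -T manakin 3 at 0.169 RPKM.

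Away from these transcripts the members lay close to the threshold. In the species where the ratio was smaller, it was 1.5 to 2 for 56 members and at least 2 for 11, and 20 members lay between 1.5 and 1.6. A further 31 genes met the other criteria with a smaller ratio of 1.4 to 1.5. Just inside was ENSTGUG00000006561, with a finch mean of 33.1 RPKM in PEC and 22.04 RPKM in SH (ratio 1.50006). Just outside was ENSTGUG00000002849, with a manakin mean of 5141 RPKM in PEC and 3428 RPKM in SH (ratio 1.49995). Raising the ratio to 2 left 11 members, lowering it to 5 to 4 gave 170, and asking for PEC above SH in 6 of 6 birds left 38. Without 1 bird at a time, and asking for at least 4 of the 5 left, the rule chose 53 to 89 genes, of which 49 to 67 were members. The lowest count came without -T manakin 3 (53 genes, 49 of them members) and the highest without -T manakin 2. Without +T manakin 2, whose SH library stood apart, it chose 57 genes, 54 of them members.

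The size of the ratio is given here for the species side by side, without a correlation, because the rule cuts the ratios off at 1.5 in both. The ratios of 58 members were within 1.5-fold between the species, 6 were over 2-fold apart, and the ratio was larger in manakins for 33 of the 67.

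**Figure D3:**
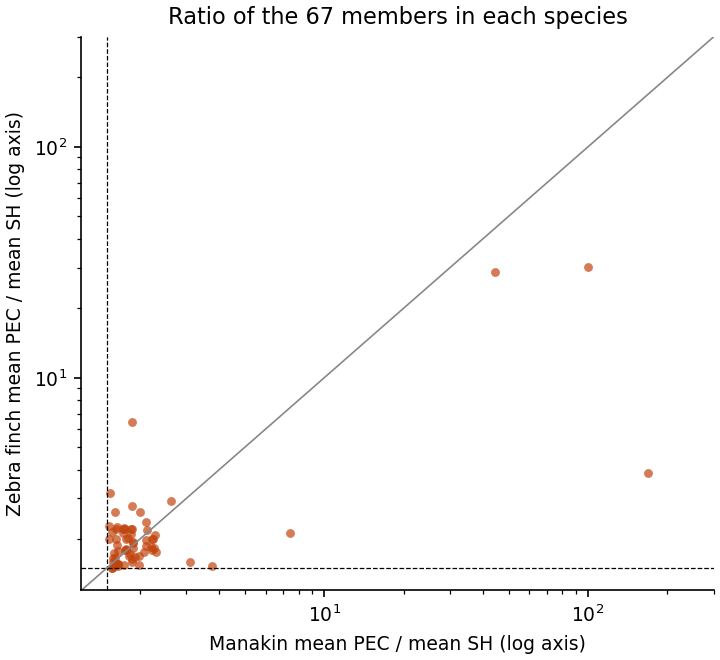
Ratio of mean PEC to mean SH of the 67 members in manakins (x axis, log scale) and zebra finches (y axis, log scale); dashed lines mark the threshold of 1.5 and the grey line equal ratios. Most points crowd into the corner at the threshold, and the 2 members above 10 in both species are ENSTGUG00000006008 and ENSTGUG00000004856.

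The contrast held in each treatment group taken alone for most members, again as a description. The ratio of group means was at least 1.5 for 60 members in +T manakins, 51 in -T manakins, 60 in flutamide finches and 61 in T-only finches, and in all 4 groups for 37. The median ratio was 1.94 in +T manakins and 1.74 in -T manakins, and 1.91 in flutamide finches and 1.87 in T-only finches. A ratio below 1 occurred for 1 member, ENSTGUG00000007682 in +T manakins (means of 20.5 RPKM in PEC and 25.6 RPKM in SH, where bird 2 had 63.8 RPKM), and for none in the other 3 groups.

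Abundant transcripts were common among the members. PEC level enters the rule, through the floor and the ratio, so these counts are a description with no test. Sorting genes by PEC level favours those higher in PEC, and classes by SH level were not made. Mean PEC levels had a median of 284 RPKM in manakins and 253 RPKM in finches, against 31.0 and 18.4 RPKM over the 3686 genes. Of the 100 most abundant PEC genes 18 were members in manakins and 17 in finches, and of the 20 most abundant 2 were members in each species. By the lower of their 2 species means, members made up 19 of 2998 genes at 5 to 50 RPKM (0.634%), 29 of 601 at 50 to 500 RPKM (4.83%) and 19 of 87 at 500 RPKM or more (21.8%). The background moved with level in the same order. The median ratio of all genes in these 3 classes was 0.832, 1.01 and 1.35 in manakins and 0.795, 1.06 and 1.29 in finches, so that abundant genes in general were nearer the threshold.

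Members were also short, a property that the rule did not use. Recovered gene lengths had a median of 696 bases for the members and 1252 bases for the 3686 genes, and 28.4% of the members against 7.70% of those genes were shorter than 500 bases. Whether length differs among genes of equal abundance was not tested. Levels varied somewhat more among birds for members than for the 3686 genes. The median coefficient of variation of members was 36.5% in PEC and 40.6% in SH of manakins, against 29.3% and 31.2% over the 3686 genes, and 32.2% in PEC and 25.5% in SH of finches, against 27.1% and 22.1%.

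PEC levels of the members followed a like order in both species. The log2 levels had a Pearson r of 0.80 and a Spearman rho of 0.79 across the 67 members. Across the 3686 genes these were 0.75 and 0.66. The rule uses PEC level, and the members lay at higher levels than the 3686 genes. The coefficients of members and of all those genes are therefore a description and cannot be ranked. Mean PEC levels of 37 members were within 2-fold between the species, 41 were higher in manakins, and 9 were over 5-fold apart. At the extremes, 1 member stood 45.0 times higher in manakins, and ENSTGUG00000000395 had 6.06 RPKM in manakins and 589 RPKM in finches. The share of such differences that comes from the assignment of manakin reads to finch genes was not tested.

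Added together, the members took a larger part of the transcript pool in PEC, as their selection requires. They held 10.8 ± 1.63% of RPKM in manakin PEC and 4.61 ± 1.5% in manakin SH (SD, n = 6 birds), and 10.4 ± 1.41% in finch PEC and 4.64 ± 0.638% in finch SH (SD, n = 6 birds). Shares were 8.65% to 12.9% in manakin PEC, 2.10% to 6.08% in manakin SH, 9.12% to 13.1% in finch PEC and 3.93% to 5.68% in finch SH, with no overlap of the muscles in either species. The lowest SH share, 2.10%, was that of +T manakin 2. Without ENSTGUG00000006008 and ENSTGUG00000010818 the shares averaged 7.64% in PEC and 4.39% in SH of manakins and 5.60% in PEC and 3.31% in SH of finches.

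Differences of these shares between treatments did not pass a test in the 3 against 3 design. In manakin PEC the share was 10.3 ± 1.79% in +T and 11.3 ± 1.64% in -T birds (SD, n = 3 each; exact two-sided permutation test, p = 0.5). In manakin SH it was 4.14 ± 1.99% in +T and 5.07 ± 1.003% in -T birds (SD, n = 3 each; exact permutation p = 0.7). In finch PEC it was 10.8 ± 2.05% with flutamide and 10.01 ± 0.492% with testosterone alone (SD, n = 3 each; exact permutation p = 0.8), and in finch SH 5.03 ± 0.564% with flutamide and 4.25 ± 0.491% with testosterone alone (SD, n = 3 each; exact permutation p = 0.3). The difference in finch SH, 0.783 percentage points, was larger than either SD. Over these 4 tests the Benjamini-Hochberg adjusted value was 0.8 for each, and 3 birds against 3 cannot give a p below 0.1. The difference in manakin SH was +0.09 percentage points without +T bird 2.

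**Figure D4:**
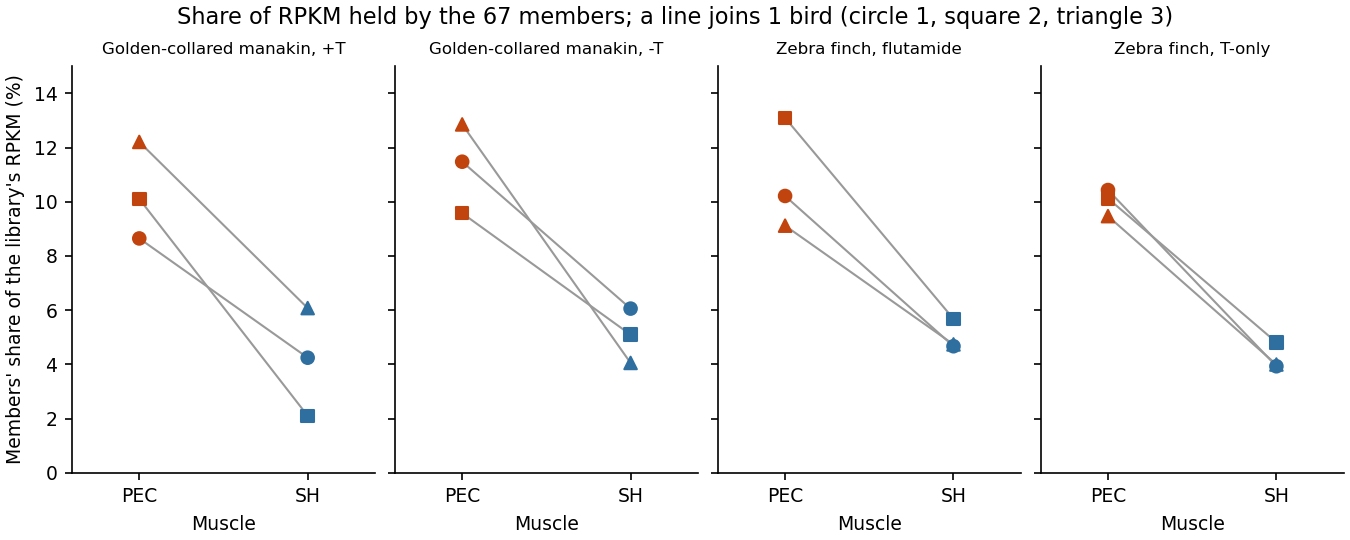
Share of the library's RPKM held by the 67 members (y axis, percent) in PEC and SH (x axis) of each bird, by species and treatment; a line joins the muscles of 1 bird. PEC lies above SH in all 12 birds, and the SH point at 2.10% is +T manakin 2.

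Single members were then compared between treatments within a muscle, with limma on log2(RPKM + 1) and a Benjamini-Hochberg adjusted p below 0.05 over all genes tested. All 67 members passed the filter on low values. In manakin PEC 0 members were called between +T and -T, where 0.4% of the 8989 genes tested were. At an unadjusted p under 0.05, 1 member was higher and 6 were lower in +T birds, against 2.76% of all genes higher and 10.5% lower. Rescaled by median ratios, 2 members were higher and 3 lower, against 5.61% and 6% of all genes. Without 1 library at a time 3 to 9 members (4.48% to 13.4%) were lower, against 7.3% to 13.7% of all genes. In manakin SH 0 members were called, against 0.0222% of all genes, and 0 were higher and 2 lower at an unadjusted p under 0.05, against 7.01% and 4.52% of all genes. Without the SH library of +T bird 3, 0 members were higher and 16 lower, against 13.5% and 5.95% of all genes. Without the SH library of +T bird 2, 1 member was higher and 2 were lower, against 4.89% and 3.96% of all genes. A test on the recovered reads (limma-voom) also called 0 members in each of the 4 treatment comparisons and both interactions. Over all genes it called 2 higher and 14 lower in manakin PEC, and 5 higher and 603 lower in finch SH. It called 0 genes in manakin SH, in finch PEC and in both interactions.

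In finch PEC 0 members were called between flutamide and T-only birds, and 0% of the 9606 genes tested were. At an unadjusted p under 0.05, 2 members were higher and 0 lower with flutamide, against 2.09% and 3.26% of all genes. The count of higher members was 9 (13.4%) without the PEC library of flutamide bird 3, against 2.05% of all genes. It was 6 (8.96%) without that of T-only bird 1 or of T-only bird 3, against 1.77% and 1.99% of all genes. Without the PEC library of flutamide bird 2 it was 1, against 2.02%. In finch SH, the comparison with the most calls, 6.19% of all genes and 0 members were called. Calls were fewer among genes that reached 5 RPKM in 6 libraries or more. Of these 5333 genes 0 were called higher and 105 lower, and 0 of the 66 members among them were called. At an unadjusted p under 0.05, 3 members were higher and 0 lower with flutamide, against 1.53% of all genes higher and 17.9% lower. This count depended on the scaling and the fit. With median-ratio scaling 15 members were higher, against 6.54% of all genes higher and 11.5% lower, with quantile scaling 10, against 7.62% and 9.35%, and with the 6 SH libraries alone 9, against 2.25% and 19.1%. The treatment difference was not called as differing between PEC and SH for any member (limma interaction), with 0% of all genes called in manakins and 0% in finches. At an unadjusted p under 0.05 it differed for 0 members in manakins, against 5.11% of all genes, and for 1 in finches, against 7.35%. This fit has no term for the bird, so the pairing of the muscles does not enter it. With a term for each bird 1 finch member was higher and 1 lower at that p, against 9.34% and 0.656% of all genes. In manakins 0 were higher and 0 lower, against 0.812% and 4.29%.

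The members of smallest p in manakin PEC were lower in +T birds without passing the adjusted threshold. ENSTGUG00000010127 had 29.2, 31.0 and 77.6 RPKM in +T birds and 99.8, 130.2 and 124 RPKM in -T birds, with a log2 difference of -1.48 ± 0.42 (SE; limma, Benjamini-Hochberg adjusted p = 0.145). ENSTGUG00000005393 had 0.829, 6.56 and 9.48 RPKM in +T birds and 28.9, 29.1 and 33.2 RPKM in -T birds, with a log2 difference of -2.58 ± 0.75 (SE; limma, Benjamini-Hochberg adjusted p = 0.153). For both transcripts the +T and -T birds did not overlap. Transcripts in this and the next paragraphs were chosen by smallest p or after their values were seen, which favours groups without overlap. The share of all genes without overlap was not counted, so lack of overlap is a description and adds no support. ENSTGUG00000010127 had an adjusted p of 0.0412 to 0.406 over the alternatives, and was called in limma without the PEC library of +T bird 3 and without the SH library of +T bird 2.

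A further transcript, ENSTGUG00000007682, chosen after its values were seen, was called in limma under 2 alternatives. Its PEC levels were 15.4, 22.2 and 23.97 RPKM in +T manakins and 88.1, 87.6 and 86.3 RPKM in -T manakins, a log2 difference of -2.06 ± 0.68 (SE; limma, Benjamini-Hochberg adjusted p = 0.203). In SH it had 9.05, 63.8 and 3.83 RPKM in +T manakins and 21.6, 23.5 and 20.7 RPKM in -T manakins, and the high value among these is the SH library of +T bird 2. The +T and -T birds did not overlap in PEC. Without that SH library the difference in PEC was the same, with an SE of 0.28 and a limma adjusted p of 0.00957, and with the 6 PEC libraries alone the adjusted p was 0.0399. In finch PEC the transcript had 66.2, 61.3 and 67.3 RPKM with flutamide and 59.9, 85.9 and 101.4 RPKM with testosterone alone, and these groups overlapped.

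Among members higher in +T manakin PEC, ENSTGUG00000013386 had a log2 difference of 4.66 ± 1.93 (SE; limma, Benjamini-Hochberg adjusted p = 0.317). All 3 +T birds, at 1298 RPKM or more, exceeded the 3 -T birds, and the size of the difference rests on -T bird 3 at 0.169 RPKM. ENSTGUG00000010818 had log2 differences of 1.16 ± 0.54 in PEC (SE; limma, Benjamini-Hochberg adjusted p = 0.382) and 1.13 ± 0.54 in SH (SE; limma, Benjamini-Hochberg adjusted p = 0.453), and +T and -T birds overlapped in both muscles. In SH the member of smallest p was ENSTGUG00000000395, at 0.346, 0.436 and 1.403 RPKM in +T birds and 2.64, 3.48 and 3.46 RPKM in -T birds, with a log2 difference of -1.32 ± 0.54 (SE; limma, Benjamini-Hochberg adjusted p = 0.383). These levels rest on few reads, a mean of 8.33 recovered reads in manakin SH at the length recovered in manakins. Its recovered length was 297 bases in manakins and 594 bases in finches, and the finch length would imply more reads.

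In finches the members of smallest p were higher with flutamide in both muscles. ENSTGUG00000004372 had 6136, 6912 and 2411 RPKM in PEC with flutamide and 2178, 783 and 2459 RPKM in PEC with testosterone alone, a log2 difference of 1.54 ± 0.46 (SE; limma, Benjamini-Hochberg adjusted p = 0.763). In SH it had 2803, 3503 and 1941 RPKM with flutamide and 1125, 855 and 1565 RPKM with testosterone alone, a log2 difference of 1.22 ± 0.46 (SE; limma, Benjamini-Hochberg adjusted p = 0.155). The SH groups did not overlap and the PEC groups did, through 1 bird of each treatment. Choice by smallest p favours groups without overlap here too. ENSTGUG00000003450 had 121, 105 and 76.8 RPKM in SH with flutamide and 67.9, 35.2 and 60.3 RPKM in SH with testosterone alone, also without overlap, with a log2 difference of 0.91 ± 0.34 (SE; limma, Benjamini-Hochberg adjusted p = 0.144). On the lower side, ENSTGUG00000013386 in SH had a log2 difference of -0.76 ± 0.38 (SE; limma, Benjamini-Hochberg adjusted p = 0.298), and its groups overlapped.

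Taken over the 67 members, the median treatment differences lay between -0.39 and 0.17 on the log2 scale. Their distance from the median of all genes changed with the scaling and with single libraries. In SH of both species the members stayed on the same side of all genes under each alternative. In PEC of both species the side turned under some alternatives. In manakin SH the median log2 difference of the members was -0.39, with 15 of 67 higher and 52 lower in +T birds. The median of all genes was 0.11, and 58.2% of them were higher. With quantile scaling the medians were -0.44 for the members and -0.07 for all genes. The members' median was -0.06 without the SH library of +T bird 2 (all genes -0.004) and -0.72 without that of +T bird 3 (all genes 0.22). In manakin PEC the median was -0.06 for the members and -0.18 for all genes. The members' median turned to 0.17 under median-ratio scaling (all genes 0.00). It was 0.14 without the PEC library of +T bird 1 (all genes -0.20) and 0.14 without that of -T bird 3 (all genes -0.19). The members lay below all genes with quantile scaling (-0.05 against -0.02). They also did so without the PEC library of +T bird 3 (-0.30 against -0.17) and without that of -T bird 2 (-0.22 against -0.15). In finch PEC the median was 0.17, with 48 of 67 higher with flutamide, against -0.06 and 42.6% for all genes. Without the PEC library of T-only bird 2 it was 0.00, against 0.05 for all genes. In finch SH the members' median was 0.17, with 45 of 67 higher with flutamide, against -0.21 and 30.6% for all genes. With quantile scaling the medians were 0.31 for the members and 0.08 for all genes.

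In SH of both species, abundant genes other than the members moved in the same direction as members above the same cut-off, but less far. Levels above the cut-off were not matched. In manakin SH this was not computed without the library of +T bird 2. Without that library the median was -0.06 over all 67 members and -0.004 over all genes. Over other genes with a mean of at least 100 RPKM, the median log2 difference was -0.11 in manakin SH, -0.07 in manakin PEC, 0.01 in finch PEC and 0.09 in finch SH. Over the members at that level, 40 in each species, it was -0.41, 0.03, 0.21 and 0.34 in the same order. Of the other genes at that level 40.5%, 42.9%, 51.5% and 59.7% were higher in +T or flutamide birds, again in that order. Median-ratio scaling moved the median of all genes to 0.00 in manakin PEC and 0.01 in finch SH, and the median of the members in finch SH to 0.43. These medians describe genes that share 12 libraries in each species and carry no test.

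**Figure D5:**
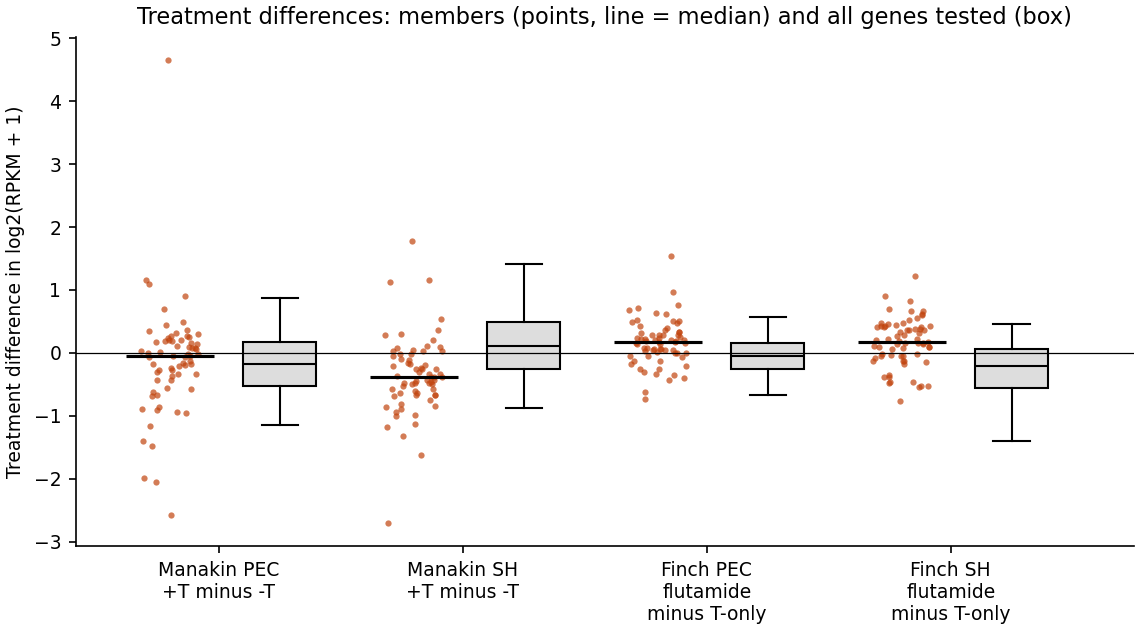
Treatment difference in log2(RPKM + 1) (y axis) in each species and muscle (x axis): orange points are the 67 members with a line at their median, and grey boxes show the quartiles and median of all genes tested with whiskers at the 5th and 95th percentiles. The members' median is -0.39 in manakin SH and 0.17 in both finch muscles, and the point at 4.66 is ENSTGUG00000013386.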

How the data were processed

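The deposited files hold RPKM per gene and library, per the file headers, listed above 0 against Ensembl release 68 zebra finch genes for both species. Per the submitters' processing notes CASAVA, cutadapt and Bowtie 0.12.9 were used; how reads were counted, and on which build, is not given in the sources used here. Per the labels' protocols RNA was extracted with Trizol, treated with DNaseI and made into strand-specific TruSeq libraries.

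Every RPKM value was a whole read count within a relative tolerance of 1e-12 once library totals and gene lengths were solved for. In manakins 57.0% to 69.4% of these counts were even, against 48.2% to 49.8% in finches, which reads counted in pairs, or a length or total recovered at a multiple of its size, would also give. Manakin read numbers are therefore those the values imply and may be off by such a multiple, which leaves RPKM unchanged. 

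Treatments were tested in limma 3.58.1 (R 4.3.3) on log2(RPKM + 1), with 12 libraries and 4 group means in each species, a prior variance following the mean level, genes reaching 1 RPKM in 3 libraries or more, and Benjamini-Hochberg adjustment over all genes. Fold changes on this scale understate those of low genes. The procedure was tested on simulated data. Replicates are numbered in the labels and were taken as separate birds; p-values measure the spread between these samples. PEC and SH libraries of the same treatment and number were taken as 1 bird. Between the muscles of a bird, deviations from group means correlated at -0.15 to 0.24 in manakins and 0.28 to 0.37 in finches. The correlation was over 0.1 in 9 of 12 birds, and was negative in some manakins. Whether muscles of unlike number correlated less was not tested.

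The members, lists and tests were chosen with earlier results of these data known. Transcripts are named by a rule: the first 2 by level, the first 2 by ratio, those nearest the threshold on each side, and up to 2 of smallest p in each direction of a treatment comparison; exceptions are said to be chosen after their values were seen. The planned gene lists and cell type markers could not be applied without gene names. Alternatives changed the rule, the pseudocount, the filter, the scaling, the model and the libraries. Python 3.11.15, numpy 2.4.6, pandas 2.3.3, scipy 1.17.1 and matplotlib 3.10.9 were used for the rest.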

Additional observations from a re-analysis of the deposited data

How the results depend on the processing

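The number of members was 67 by the rule and stayed within 1.5 times that in 16 of 20 alternatives; it was 38 with PEC above SH in 6 of 6 birds, 11 at a ratio of 2, 170 at a ratio of 5 to 4 and 258 with median-ratio scaling, and 53 to 89 without 1 bird. Of 124 alternatives over the 6 treatment comparisons, 121 called 0 members, as did the fits reported. Of all genes those reported fits called 36 in manakin PEC, 2 in manakin SH, 595 in finch SH and 0 in finch PEC and both interactions. Where few or no genes are called, 0 members carries no result about the members. In manakin PEC 1 member was called with the 6 PEC libraries alone, where 7 of 8989 genes were called higher and 10 lower. Leaving out 1 library at a time gave 0 to 2 members. The 2 came without the SH library of +T bird 2. There 46 genes were called higher and 122 lower, against 12 and 24 in the fit reported. The replicate block called 0 members in each comparison. Over all genes it called 13 higher and 24 lower in manakin PEC, 13 higher and 595 lower in finch SH, and at most 1 gene elsewhere. It used the replicate number within a muscle and a term for each bird in the interactions. The numbers were taken to pair the muscles of a bird. Between treatments, deviations of same-numbered libraries correlated at -0.24 to 0.07, and 1 of 12 libraries correlated best with its own number. Without ENSTGUG00000006008 and ENSTGUG00000010818 the difference in members' share was 0.106 percentage points in manakin PEC, reversed from -0.983. Without 1 library at a time this difference was -1.93 to -0.147 in manakin PEC, -1.89 to 0.0926 in manakin SH, -0.342 to 1.65 in finch PEC and 0.457 to 1.07 in finch SH, with the sign turned without the SH library of +T manakin 2 and without the PEC library of flutamide finch 2. Members' median log2 differences moved beyond the spread of the birds in 2 of 124 alternatives, both in finch SH, to 0.43 with median-ratio and 0.31 with quantile scaling. That spread includes libraries that stood apart. Within it lay shifts in manakin SH from -0.39 to -0.06 without the library of +T bird 2, and to -0.72 without that of +T bird 3. Of 495 alternatives for the named transcripts' treatment differences, 493 stayed uncalled, none turned in sign and 2 were called, both for ENSTGUG00000010127 in manakin PEC. The cause of these changes was not tested. The prior variance without a trend was chosen after seeing the data. Reads of low members limit precision: ENSTGUG00000004856 had 0 to 41 reads in a manakin SH library.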

Other observations

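Members were unevenly spread over the libraries in which they were highest or lowest of the 6 of a muscle, and the shares are set beside those of the 3686 genes at 5 RPKM or more in PEC in both species. In manakin PEC the library of +T bird 3 was highest for 37.3% of the members and 13.5% of those genes, and that of -T bird 3 for 38.8% and 15.1%. The library of +T bird 1 was lowest for 41.8% of the members and 25.3% of the genes, and that of -T bird 2 for 31.3% and 9.82%. In manakin SH the library of +T bird 2 was lowest for 67.2% of the members and 28.2% of the genes, and highest for 7.46% and 32.4%. In finch PEC the library of flutamide bird 2 was highest for 43.3% of the members and 10.1% of the genes, and that of T-only bird 2 was lowest for 46.3% of the members and 10.3% of the genes while it was highest for 42.2% of the genes. In finch SH the library of flutamide bird 3 was highest for 40.3% of the members and 11.5% of the genes, and that of T-only bird 3 lowest for 34.3% and 18.8%. T-only finch 2 also had the fewest members higher in PEC than in SH, 57 of 67, followed by -T manakin 2 with 59. The members share libraries and these shares carry no test, and with 3 birds in a group no test for outlying birds was made.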
